A study of Homo sapiens with 30 samples.

Results

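Many genes for long noncoding RNAs (lncRNAs) start next to a protein-coding gene and share its promoter. The promoters described here stand alone. They are windows of 1000 bp at each side of every lncRNA start site that had no protein-coding start site within 5000 bp, and windows that touched were merged. There were 15388 such windows, holding 21470 transcripts of 14059 lncRNA genes, among 40656 promoter windows in all. The classes used for comparison were 24226 windows of protein-coding genes and 4826 windows of lncRNA start sites within 5000 bp of a coding one. Of the latter, the 40656 hold only those that touched no stand-alone or coding window. Most stand-alone windows, 14645 (95.2%), belonged to 1 gene. The bare width of 2001 bp held for 12530 windows (81.4%), and windows merged from several start sites were up to 7662 bp long. The median distance to the nearest coding start site was 62909 bp. By place, 10734 windows (69.8%) started outside coding genes, 3350 (21.8%) started inside a coding gene on its opposite strand and 1304 (8.47%) on its same strand. Genes known only by an Ensembl number made up 10198 windows (66.3%).

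A lncRNA is transcribed by RNA polymerase II and usually spliced, but is not translated into a conserved protein. Active promoters of any class carry trimethylation of lysine 4 of histone H3 (H3K4me3) and acetylation of its lysine 9 (H3K9Ac), and H3K9Ac also marks enhancers. SAP30 is a subunit of the SIN3 corepressor complex, in which SIN3A or SIN3B is the scaffold that holds histone deacetylases. The complex is found at promoters, many of them active and rich in CpG dinucleotides.

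The data come from chromatin immunoprecipitation with sequencing (ChIP-seq) of MDA-MB-231, an established triple-negative breast cancer line, grown in DMEM with 10% fetal bovine serum. Antibodies to SAP30, SIN3A and SIN3B were used in parental cells. Antibodies to RNA polymerase II (Pol II), H3K4me3 and H3K9Ac were used in parental cells and in the SAP30 knockout line SAP30-KO1, which the study's methods describe as a mixture of single-cell clones made with CRISPR/Cas9. These 9 groups of 2 libraries gave 18 lists of peak summits, the bases at which the peak caller placed the top of each peak, with 10861 to 54622 summits per list. A window was counted for a group when a summit of both libraries fell in it. A summit's rank is its place in its own list by the authors' score, from 0% for the best to 100% for the last. A peak that is absent from a list may have lain below its threshold, and since sequencing depth is unknown, absence does not show that a protein was not there. Fewer cells with a signal and less signal per cell cannot be told apart, which matters for a line that mixes clones. The study describes its n as biological samples or experiments. It does not state that the libraries of a group came from separate cultures, so the spread between them may be technical.

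The peak lists could not check the knockout label, because the promoter of SAP30 itself (chr4:174291105-174293105) held a summit in all 18 libraries. Its Pol II ranks were 10.2% and 5.40% in parental cells and 3.75% and 23.9% in SAP30-KO1. The labelled line was checked on marker promoters. Pol II, H3K4me3 and H3K9Ac were found in both lines at 7 of 7 genes typical of basal-like or mesenchymal breast lines, among them VIM, CD44 and AXL. Parental Pol II was found at 1 of 7 luminal genes (KRT19), at 0 of 4 leukocyte genes, at 0 of 3 endothelial genes and at 1 of 4 hepatocyte or neuron genes (SYP). Other peaks were less selective. Parental H3K4me3 was found at 5 of 7 luminal genes (ESR1, PGR, FOXA1, KRT19 and CDH1) and SAP30 at 4 of 7 (PGR, FOXA1, KRT19 and TFF1), and the leukocyte gene CD14 had SAP30, SIN3B and both marks. The defining luminal gene GATA3 had no peak in both libraries of any group.

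The promoters below carry the patterns that follow. Each is 300 bases in the direction of transcription, from 250 bases before the start site to the 50th base of the transcript, in GRCh37 (hg19), and capitals mark the CG dinucleotides. All 6 lie outside protein-coding genes. The first set is from hosts of small nucleolar RNAs (snoRNAs) with every protein and mark in every library, SNHG5 (chr6:86388405-86388704, minus strand), SNHG15 (chr7:45026384-45026683, minus strand) and DANCR (chr4:53578311-53578610, plus strand).
SNHG5: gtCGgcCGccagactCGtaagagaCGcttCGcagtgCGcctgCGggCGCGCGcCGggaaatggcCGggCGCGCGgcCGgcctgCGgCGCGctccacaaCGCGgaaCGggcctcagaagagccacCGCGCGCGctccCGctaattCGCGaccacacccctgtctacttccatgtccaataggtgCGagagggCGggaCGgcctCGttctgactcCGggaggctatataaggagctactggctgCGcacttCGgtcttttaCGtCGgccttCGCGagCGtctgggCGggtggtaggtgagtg
SNHG15: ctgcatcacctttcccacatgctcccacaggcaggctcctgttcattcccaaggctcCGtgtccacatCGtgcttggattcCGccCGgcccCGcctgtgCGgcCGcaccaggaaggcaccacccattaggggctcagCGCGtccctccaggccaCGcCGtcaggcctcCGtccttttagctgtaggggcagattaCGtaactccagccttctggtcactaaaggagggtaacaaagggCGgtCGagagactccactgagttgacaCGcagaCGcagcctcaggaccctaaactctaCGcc
DANCR: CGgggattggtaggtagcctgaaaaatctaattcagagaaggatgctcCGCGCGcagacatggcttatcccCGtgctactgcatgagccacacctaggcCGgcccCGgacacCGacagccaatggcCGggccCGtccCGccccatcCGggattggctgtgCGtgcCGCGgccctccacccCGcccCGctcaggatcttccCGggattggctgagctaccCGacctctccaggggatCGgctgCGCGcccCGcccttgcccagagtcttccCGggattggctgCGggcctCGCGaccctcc
These 3 held 42, 18 and 27 CG dinucleotides.

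The second set shows promoters where a protein or mark was missing or was lost in the knockout. MIR17HG (chr13:91999701-92000000, plus strand) had Pol II and both marks but no SAP30 peak. MIR4435-2HG (chr2:112252576-112252875, minus strand) lost Pol II, and LUCAT1 (chr5:90610170-90610469, minus strand) lost H3K4me3.
MIR17HG: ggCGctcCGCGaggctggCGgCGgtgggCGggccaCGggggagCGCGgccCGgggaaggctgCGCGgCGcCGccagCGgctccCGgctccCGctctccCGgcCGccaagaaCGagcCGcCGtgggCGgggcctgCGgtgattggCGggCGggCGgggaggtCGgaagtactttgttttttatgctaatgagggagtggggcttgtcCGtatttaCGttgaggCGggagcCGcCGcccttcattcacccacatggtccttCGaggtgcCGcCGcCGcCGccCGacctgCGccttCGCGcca
MIR4435-2HG: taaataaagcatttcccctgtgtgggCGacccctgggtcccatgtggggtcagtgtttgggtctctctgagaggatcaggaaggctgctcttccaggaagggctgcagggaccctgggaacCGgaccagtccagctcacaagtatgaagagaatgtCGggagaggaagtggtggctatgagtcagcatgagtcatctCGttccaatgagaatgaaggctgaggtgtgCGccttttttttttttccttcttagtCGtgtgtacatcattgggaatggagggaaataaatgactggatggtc
LUCAT1: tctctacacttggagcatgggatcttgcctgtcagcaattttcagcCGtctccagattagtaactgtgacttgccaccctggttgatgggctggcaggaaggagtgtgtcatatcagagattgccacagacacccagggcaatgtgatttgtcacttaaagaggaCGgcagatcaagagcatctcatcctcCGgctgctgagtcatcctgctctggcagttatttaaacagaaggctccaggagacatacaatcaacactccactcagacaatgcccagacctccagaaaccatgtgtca
MIR17HG held 42 CG dinucleotides and 5 GC boxes (GGGCGG on either strand). MIR4435-2HG and LUCAT1 held 6 and 3 CG dinucleotides and no GC box.

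To determine how often these promoters were occupied, the share of windows with a peak was taken in each library. SAP30 lay at 8.38% and 7.90% of stand-alone windows in its libraries and at 7.26% in both (1117 windows, exact 95% binomial interval 6.85% to 7.68%). SIN3A lay at 1.64% and 1.49% and at 1.05% in both (162 windows), and SIN3B at 4.98% and 4.21% and at 3.51% in both (540 windows). The scaffold proteins were thus called at fewer lncRNA promoters than SAP30. Parental Pol II lay at 5.40% and 5.84% and at 4.94% in both (760 windows). Parental H3K4me3 lay at 7.12% and 7.30% and at 6.82% in both (1049 windows), and parental H3K9Ac at 9.76% and 9.24% and at 8.38% in both (1289 windows). H3K9Ac was the most frequent of the parental peaks and SIN3A the least. The H3K9Ac lists were also the longest (54622 and 53651 summits) and the SIN3A lists the shortest. The part of list length in these shares was not tested. Intervals here and below cover counting error only.

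Protein-coding windows were occupied far more often in all 9 groups. SAP30 was present in both libraries at 47.0% of them, SIN3A at 22.2%, SIN3B at 38.1%, parental Pol II at 43.2%, H3K4me3 at 49.1% and H3K9Ac at 47.4%. The mean share over the 9 groups was 5.59% for stand-alone lncRNA windows and 42.5% for coding windows, a difference of -36.87 percentage points (exact two-sided sign-flip permutation test over 9 groups, p = 0.00391, the smallest possible). The coding share exceeded the lncRNA share 5.66 times in parental H3K9Ac, 6.48 times in SAP30, 10.9 times in SIN3B and 21.1 times in SIN3A. lncRNA windows near a coding start site were occupied more often than coding ones in all 9 groups, with SAP30 at 52.5% of them, and the mean difference of stand-alone windows from these was -43.06 points (same exact permutation test, p = 0.00391). All 4826 such windows were used, also those that overlap a coding window, whose summits can then count for both classes. The groups share cells and promoters, so this test speaks of these 9 groups.

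**Figure D1:**
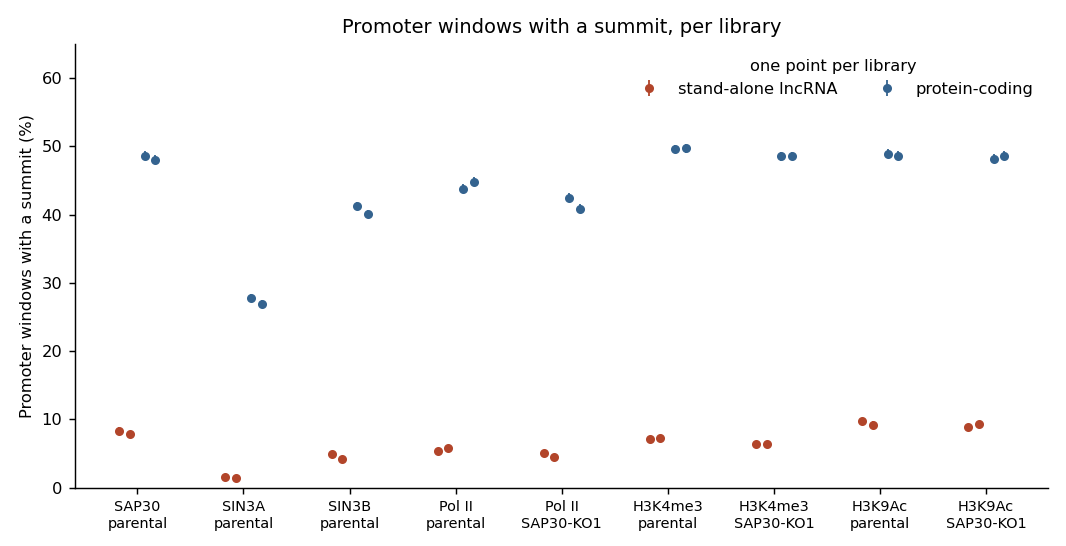
Percent of stand-alone lncRNA windows (red) and protein-coding windows (blue) with a summit, 1 point per library in 9 groups, with exact 95% binomial intervals that are mostly hidden by the points. Red points lie between 1.49% and 9.76%, and all blue points lie above them.

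Where a lncRNA window had a peak, the peak also stood lower in its list. The median rank of the best summit per window was 42.2% and 42.5% for SAP30 in lncRNA windows against 18.9% and 19.3% in coding ones. It was 48.8% and 45.7% for parental Pol II against 28.6% and 26.2%. lncRNA medians were worse than coding medians in 18 of 18 libraries, by 9.27 to 29.0 points, and the mean difference over groups was 20.4 points (exact two-sided sign-flip permutation test over 9 groups, p = 0.00391).

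Most stand-alone windows, 13340 (86.7%), had no summit in any of the 18 libraries, against 45.9% of coding windows. All 9 groups were present at 132 windows (0.858%), against 4878 coding windows (20.1%). In parental cells the most frequent set at occupied windows was SAP30 with SIN3B, Pol II and both marks, without SIN3A, at 285 windows. H3K9Ac by itself followed with 227 windows, and SAP30 with Pol II and both marks but neither scaffold with 195. All 6 proteins and marks were present at 136 windows. SAP30 without any of the others was called in both libraries at 90.

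SIN3 peaks were found almost solely where SAP30 was. Of the 162 windows with SIN3A, 98.1% had SAP30, and of the 540 with SIN3B, 96.1% had it, close to 98.3% and 97.9% at coding windows. The reverse did not hold. Of the 1117 SAP30 windows, 143 (12.8%) had SIN3A and SIN3B, 376 (33.7%) had SIN3B without SIN3A and 323 (28.9%) had no SIN3 peak in any library. At coding windows with SAP30, 45.2% had both scaffolds and 10.0% had no SIN3 peak in any library. A single window, of ENSG00000288844 (chr10:102826427-102828427, antisense inside a coding gene), had SIN3A in both libraries (ranks 73.0% and 93.6%) without SAP30 in either. SAP30 also accompanied transcription: 92.2% of the 760 Pol II windows had SAP30, and 62.8% of the SAP30 windows had Pol II, 75.1% H3K4me3 and 84.4% H3K9Ac.

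SAP30 windows without a SIN3 peak were less active and had weaker SAP30 peaks. Pol II was present at 28.8% of these 323 windows, H3K4me3 at 57.6% and H3K9Ac at 67.2%. At the 143 windows with both scaffolds the shares were 97.9%, 97.2% and 96.5%. The median SAP30 rank was 57.9% and 60.7% in the libraries without SIN3, and 11.1% and 10.2% with both scaffolds. A weak SAP30 peak and a missing SIN3 peak go together here, so a SIN3 peak below its list's threshold cannot be told apart from SAP30 without SIN3.

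Base composition went with occupancy but did not separate occupied from unoccupied promoters. A window was called CpG-rich when the 501 bp around its start site had at least 50% GC and an observed to expected CpG ratio of at least 0.6. Of stand-alone windows 1238 (8.05%) were CpG-rich, against 12334 coding windows (50.9%). Of these 1238 lncRNA windows, 616 had no summit in any library. SAP30 was present in both libraries at 40.1% of CpG-rich lncRNA windows (497 windows, exact 95% interval 37.4% to 42.9%; 42.6% and 41.4% by library) and at 4.38% of the others (620 of 14150, 4.05% to 4.73%; 5.39% and 4.98% by library). SIN3A was present at 10.2% and 0.254%, SIN3B at 25.2% and 1.61%, parental Pol II at 34.0% and 2.40%, H3K4me3 at 45.5% and 3.43% and H3K9Ac at 40.1% and 5.60%. The gap to coding windows remained within each class. SAP30 was present at 78.7% of CpG-rich coding windows and at 14.2% of the other coding windows. These shares are descriptions over windows, which are not replicates.

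**Figure D2:**
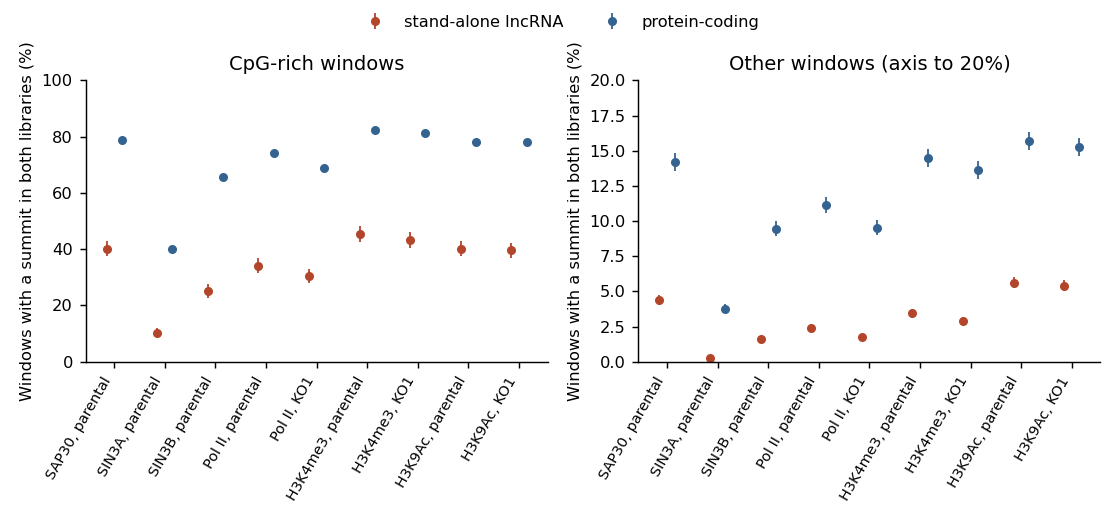
Percent of windows with a summit in both libraries of each of the 9 groups, for CpG-rich windows (left, axis to 100%) and other windows (right, axis to 20%), stand-alone lncRNA in red and protein-coding in blue, with exact 95% binomial intervals. In every group CpG-rich windows were occupied more often, and lncRNA windows less often than coding ones of the same class.

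The proteins and marks differed in how far their called peaks kept to CpG-rich lncRNA promoters. Their lists differed in length as well, and the part of list length was not tested. CpG-rich windows made up 77.8% of SIN3A windows, 57.8% of SIN3B, 55.4% of parental Pol II, 53.7% of H3K4me3, 44.5% of SAP30 and 38.6% of H3K9Ac windows. They were 78.3% of windows with SAP30 and both scaffolds, 31.3% of those with SAP30 and no SIN3 peak and 4.62% of windows without any peak.

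Short motifs were searched on both strands of the 300-base promoters. The GC box bound by SP and KLF factors (GGGCGG) was in 11.9% of all stand-alone promoters, 44.6% of those with SAP30, 68.5% of those with SAP30 and both scaffolds and 48.3% of coding promoters. An ETS motif (CCGGAAG) was in 2.87%, 9.13%, 16.1% and 9.86% of the same sets. A cAMP response element (TGACGTCA) was in 0.539% of all and 2.69% of SAP30 promoters, and an E-box (CACGTG) in 4.62% and 7.34%. The AP-1 motif (TGANTCA) was in 11.7% of all stand-alone promoters, 14.9% of those with SAP30 and no SIN3 peak, 5.59% of those with SAP30 and both scaffolds and 6.96% of coding promoters. CCAAT was in 36.5% of all and 30.3% of SAP30 promoters, and TATAAA in 19.1% and 7.61%. The first of these motifs are rich in G and C as the promoters are, and a match is no evidence of binding. DANCR, printed above, held CCAAT 5 times and the GC box 3 times.

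Position relative to coding genes also went with occupancy. SAP30 was present at 8.39% of windows outside coding genes (exact 95% interval 7.88% to 8.93%), at 5.01% of antisense windows inside them (4.30% to 5.81%) and at 3.68% of same-strand windows inside them (2.73% to 4.85%). Pol II followed with 5.93%, 2.78% and 2.38%. By distance to the nearest coding start site, SAP30 was at 10.1% of windows within 20 kb, 8.40% at 20 to 100 kb and 4.49% beyond 100 kb. Pol II was at 7.35%, 5.66% and 2.85% of the same classes.

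Within windows, Pol II summits lay nearest to the start site. The median distance was 102 and 100 bp in the parental libraries and 98.5 and 112 bp in SAP30-KO1. SAP30 summits lay at a median of 152 and 165 bp, SIN3A at 141 and 119 bp and SIN3B at 147.5 and 150 bp. H3K4me3 summits lay at 229 to 234 bp over 4 libraries, with about 72% of them downstream of the start site (71.8% to 72.2%). H3K9Ac summits lay at 301 to 305.5 bp, 64.2% to 65.2% of them downstream. The proteins thus centred on the start site, while the marks peaked on its transcribed side. Of the proteins only Pol II was measured in SAP30-KO1.

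**Figure D3:**
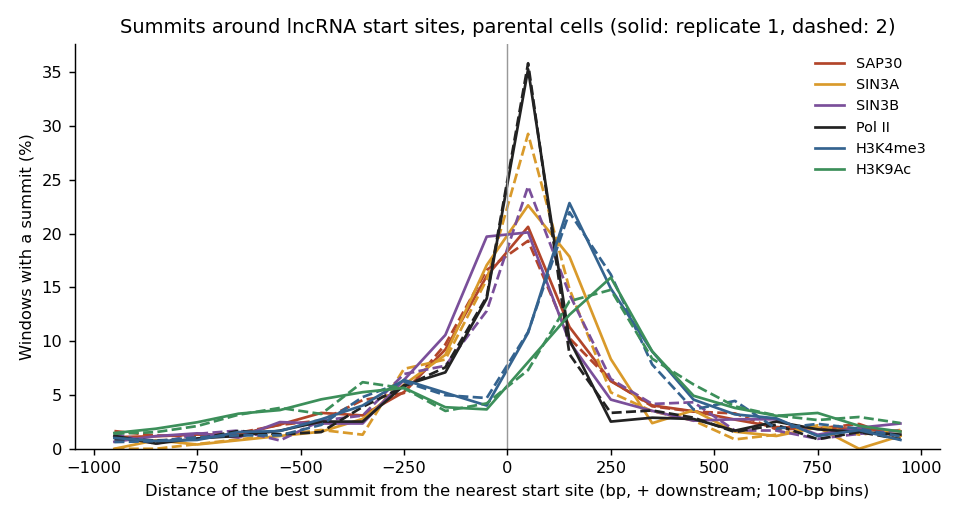
Percent of stand-alone lncRNA windows with a summit (y axis) whose best summit fell in each 100-bp bin of distance from the nearest start site (x axis, bp, positive downstream), for 6 antibodies in parental cells, replicate 1 solid and replicate 2 dashed. Pol II peaks within the bin just downstream, SAP30, SIN3A and SIN3B lie around the start site and H3K4me3 and H3K9Ac peak further downstream.

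Among well-known lncRNAs, hosts of snoRNAs were the most fully occupied. Most genes of this list carry snoRNAs in their introns, many of which guide modification of ribosomal RNA. Of 27 genes listed as hosts, 18 had a stand-alone promoter, and 14 of these had a window with a summit in all 18 libraries. Over all stand-alone windows 0.858% had all 9 groups. That share is by window, while the 14 are genes, and the 18 genes hold 43 windows. The 14 were SNHG5, SNHG6, SNHG7, SNHG8, SNHG11, SNHG12, SNHG15, SNHG16, SNHG17, SNHG25, SNHG29, SNHG32, DANCR and EPB41L4A-AS1. At SNHG5 SAP30 ranked at 0.409% and 0.806%, SIN3A at 15.7% and 4.24% and SIN3B at 12.4% and 7.34%. Its Pol II ranks were 0.839% and 0.611% in parental cells and 0.261% and 0.644% in SAP30-KO1. SNHG5, SNHG7 and SNHG15 were among the 10 stand-alone windows with the best mean SAP30 rank. SNHG15 ranked at 1.04% and 1.26% for SAP30, and its Pol II ranks were 3.61% and 1.20% in parental cells and 1.88% and 1.83% in the knockout.

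Among these 14, DANCR had weaker SAP30 peaks (12.3% and 17.6%), with Pol II at 14.4% and 2.34% in parental cells and 1.77% and 3.72% in the knockout. The remaining 4 listed genes differed. SNHG30 lacked SIN3A alone. CYTOR, in this list although it is a duplicate of a microRNA host described below, had SAP30 at 31.4% and 29.8% but neither SIN3A nor SIN3B. It had H3K9Ac in all 4 libraries and lacked Pol II and H3K4me3 in 1 knockout library each. SNHG14, the host of an imprinted snoRNA cluster expressed in the brain, had 24 windows and no summit in any library. ZFAS1 had a lone summit, in parental Pol II replicate 2 (76.9%), at the window of its 1 stand-alone transcript. Its 5 other transcripts start near a coding gene, so their promoter is not described here. The other listed hosts, such as GAS5 and SNHG1, start within 5000 bp of a coding gene and are not stand-alone. No host window lost or gained a mark between the lines. Of the 14 hosts present in all 18 libraries, all but SNHG7 and EPB41L4A-AS1 had CpG-rich windows.

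Of the nuclear and structural lncRNAs, 5 had a stand-alone promoter, and MALAT1, NEAT1 and NORAD had strong Pol II peaks in their windows. MALAT1, a lncRNA of nuclear speckles (chr11:65264159-65271820), had Pol II at 0.333% and 0.187% in parental cells and 0.242% and 0.357% in the knockout, and SAP30 at 23.4% and 29.2%. The MALAT1 window is the longest of all, 7662 bp, merged from the start sites of 11 transcripts. Its best summits could lie anywhere in it, as in the merged windows of NEAT1 and, below, of LUCAT1 and LINC00511. NEAT1, the scaffold of paraspeckles (chr11:65187919-65192010), had Pol II at 0.222% and 0.0913% and then 0.291% and 0.294%. This NEAT1 window had H3K4me3 and all 3 SIN3-complex proteins but no H3K9Ac summit in any of the 4 libraries. NORAD, which binds Pumilio proteins (chr20:34637940-34640413), had all 18 libraries, with H3K9Ac at 0.00366% and 0.138% in parental cells and 0.0315% and 0.0472% in the knockout. The Pol II ranks of NORAD were 1.31% and 1.12% in parental cells and 1.31% and 1.32% in the knockout. FIRRE, a nuclear lncRNA (chrX:130963632-130965671), had Pol II in 1 parental library, at 96.1%, and in both knockout libraries, at 49.7% and 57.6%, with SAP30 at 38.3% and 47.9%. MIAT had no peak. Of the 5 genes 3 had SIN3A, and none lost or gained a mark.

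MicroRNA hosts were mixed. Of 21 hosts with a stand-alone promoter, 16 had a peak in some library, 13 had SAP30, 10 SIN3B and 4 SIN3A in both libraries, and 2 (MIR210HG and MIR9-1HG) had all 18 libraries. MIR17HG, the host of the oncogenic miR-17 cluster (chr13:91998951-92001074), had no SAP30 summit, although SIN3B ranked at 24.7% and 37.8% and SIN3A was called in 1 library (40.0%). Its Pol II ranked at 4.43% and 10.4% in parental cells and 7.52% and 10.9% in the knockout, so the promoter was strongly occupied. MIR23AHG had Pol II at 0.121% and 0.0870% and SAP30 in 1 library only (38.5%). MIR31HG, MIR155HG and MIR205HG had no peak.

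A pair of microRNA hosts lost Pol II. MIR193BHG had parental Pol II at 79.3% and 53.6% and no Pol II summit in either knockout library. Its H3K4me3 remained at 31.8% and 29.5% (13.8% and 12.4% in parental cells) and its H3K9Ac at 29.0% and 25.6% (19.9% and 23.0%). MIR4435-2HG (chr2:112251510-112253736) had parental Pol II at 72.1% and 56.5% and none in the knockout, with H3K4me3 and H3K9Ac in all 4 libraries. CYTOR, a duplicate of this gene, had Pol II at 63.2% and 50.4% and then 76.6% in 1 knockout library, and H3K4me3 at 45.0% and 52.9% and then 39.0% in 1 knockout library. The windows of CYTOR and MIR4435-2HG were 99.3% identical over 2147 aligned columns, with 14 mismatches, so their reads could be exchanged and both results are uncertain. The parental Pol II peaks of all 3 windows ranked in the worse 50% of their lists.

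Cancer-associated lncRNAs split by promoter. Of 35 with a stand-alone promoter, 20 had a peak, 14 had SAP30, 12 SIN3B, 4 SIN3A and 11 parental Pol II in both libraries. PVT1, the neighbour of MYC, had all 18 libraries at 1 of its 8 windows, with SAP30 at 2.18% and 4.50%. DLEU1 and DLEU2, which start from a shared window (chr13:50655127-50657307), had all 18 libraries, with SAP30 at 10.2% and 8.06%. LINC00511 had 12 windows. Its window at chr17:70587831-70589968 had all libraries but SIN3B replicate 2, with Pol II at 0.733% and 0.270% and then 0.308% and 0.436%. Its window at chr17:70416445-70420376 lost Pol II (88.7% and 61.3% in parental cells), and that at chr17:70610273-70612273 lost H3K9Ac (96.5% and 60.4%). LUCAT1, a stress-induced lncRNA (chr5:90607192-90611225), lost H3K4me3, which had ranked at 95.5% and 97.7%, and kept H3K9Ac at 40.9% and 21.0% (16.9% and 15.8% in parental cells). MEG3, UCA1, BCAR4, CRNDE and DSCAM-AS1 had no peak at their stand-alone windows. Of these genes CRNDE also has 6 transcripts that start near a coding gene and were not counted.

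Most imprinted and tissue-restricted genes had no summit in any library. The same was true of 86.7% of all stand-alone windows, so it does not set these genes apart. Of 8 imprinted lncRNAs with a stand-alone promoter, KCNQ1OT1, the antisense transcript of the KCNQ1 domain (chr11:2720212-2722233), had all 18 libraries, with Pol II at 1.47% and 1.96% and then 1.98% and 1.40%. H19 had SAP30 at 57.9% and 82.1% and nothing else. MEG3, MEG8, MEG9, SNHG14, AIRN and PEG13 had no peak. Of 10 tissue-restricted genes, 3 had a peak in some library and MIR9-1HG was the one with SAP30.

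**Figure D4:**
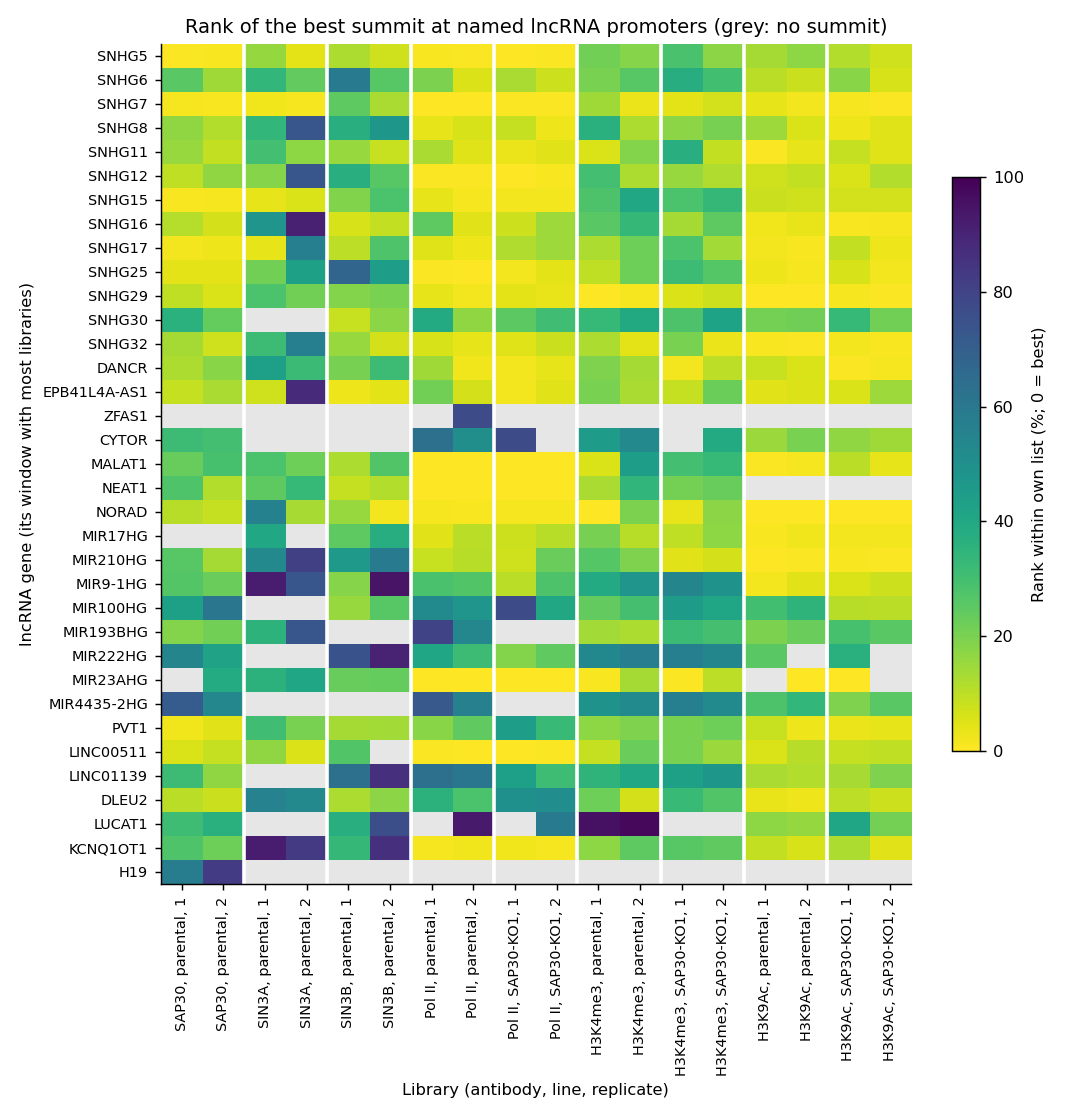
Rank of the best summit in each of the 18 libraries (columns) for 35 named lncRNA promoters (rows, each gene's window with the most libraries), from 0% (best, yellow) to 100% (dark), grey where the library had no summit. Most SNHG rows are filled throughout, NEAT1 is grey for H3K9Ac, MIR17HG for SAP30, and MIR193BHG and MIR4435-2HG for Pol II in SAP30-KO1.

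The 2 windows with the best mean SAP30 rank belonged to genes outside the lists, while SNHG5, SNHG7 and SNHG15 were also among the best 10. ENSG00000286874 (chr7:4680879-4682879) ranked at 0.166% and 0.277%, and LINC01572 with ZFHX3-AS1 (chr16:72697846-72700069) at 0.417% and 0.536%. Of the 10 windows with the best mean SAP30 rank, 9 had SIN3A, Pol II and both marks in all their libraries and SIN3B in at least 1. The other was MIR7-3HG, the host of miR-7-3 (chr19:4768043-4770293), with SAP30 at 1.01% and 1.17%, SIN3A at 1.58% and 15.8% and SIN3B at 11.5% and 76.0%, but no summit of Pol II, H3K4me3 or H3K9Ac in any of their 12 libraries. Among SAP30 windows without a SIN3 peak, DLEU2 with ENSG00000274270 (chr13:50698677-50700952) ranked best at 8.41% and 2.13% and carried Pol II and both marks. IER5L-AS1 (chr9:132019633-132021633, same strand inside a coding gene) came next at 14.6% and 12.6% and had no other peak.

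To determine what changed without SAP30, windows were counted in the lists of each line. Pol II was at 831 and 899 stand-alone windows in parental cells and at 776 and 688 in SAP30-KO1 (means 865 ± 48.1 and 732 ± 62.2, SD, n = 2), a ratio of 0.846. H3K4me3 was at 1095 and 1124 and then at 995 and 987 windows, a ratio of 0.893. The lines did not overlap for either, but the exact two-sided permutation test of 2 libraries against 2 cannot go below p = 0.33, which both gave. H3K9Ac was at 1502 and 1422 and then at 1372 and 1436 windows, a ratio of 0.960, and the lines overlapped (same exact permutation test, p = 0.67). The ratios for coding windows were 0.940, 0.977 and 0.992, nearer to 1 for each mark, and this difference between the classes was not tested.

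Windows present in both parental and in neither knockout library were called lost, and the reverse gained. Pol II was lost at 81 of 760 lncRNA windows (10.7%), while 3.51% of all promoter windows lost it, and gained at 4 of 621, while 0.262% of all windows gained it. H3K4me3 was lost at 78 of 1049 (7.44%; 2.30% of all windows) and gained at 8 of 944 (0.261% of all windows). H3K9Ac was lost at 55 of 1289 (4.27%; 1.30% of all windows) and gained at 29 of 1253 (2.31%; 0.875% of all windows). Pol II and H3K4me3 were both lost at 9 windows (11.1% of Pol II and 11.5% of H3K4me3 losses), H3K4me3 and H3K9Ac at 6 (7.69% and 10.9%), Pol II and H3K9Ac at 2 (2.47% and 3.64%) and all 3 at 1. Of the 81 windows that lost Pol II, 43 (53.1%) had H3K4me3 and 59 (72.8%) had H3K9Ac in all 4 libraries. Of the 78 that lost H3K4me3, 3 (3.85%) had Pol II and 20 (25.6%) had H3K9Ac in all 4, and of the 55 that lost H3K9Ac, 3 (5.45%) had Pol II and 12 (21.8%) had H3K4me3. The counts rest on single libraries: with 1 library left out they can only rise, and Pol II losses became 164 without parental replicate 1 and 152 without SAP30-KO1 replicate 1, and H3K4me3 losses 131 without parental replicate 1. H3K9Ac losses ranged from 95 to 147 over the 4 libraries left out.

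Losses lay at the bottom of the lists, where lncRNA peaks were more frequent than coding ones. Among lncRNA windows with a mean parental rank better than 25%, Pol II was lost at 0% (exact 95% interval up to 2.0%). From 25% to 50% it was lost at 1.12%, from 50% to 75% at 18.9% (14.2% to 24.3%) and beyond at 52.5% (39.1% to 65.7%). Coding windows lost Pol II at 0.402% from 25% to 50%, and in the last 2 bins at 14.5% (12.7% to 16.5%) and 40.5% (34.1% to 47.1%). The lncRNA share was higher in each of these bins, with overlapping intervals, and this difference was not tested. H3K4me3 was lost at 4.14% and 37.0% of lncRNA windows in the last 2 bins and at 5.04% and 39.9% of coding ones. H3K9Ac was lost at 12.8% and 24.4% of lncRNA and at 8.62% and 25.5% of coding windows. In the better-ranked 50% of the parental lists, 1 of 391 lncRNA windows lost Pol II, 0 of 414 lost H3K4me3 and 4 of 904 lost H3K9Ac.

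**Figure D5:**
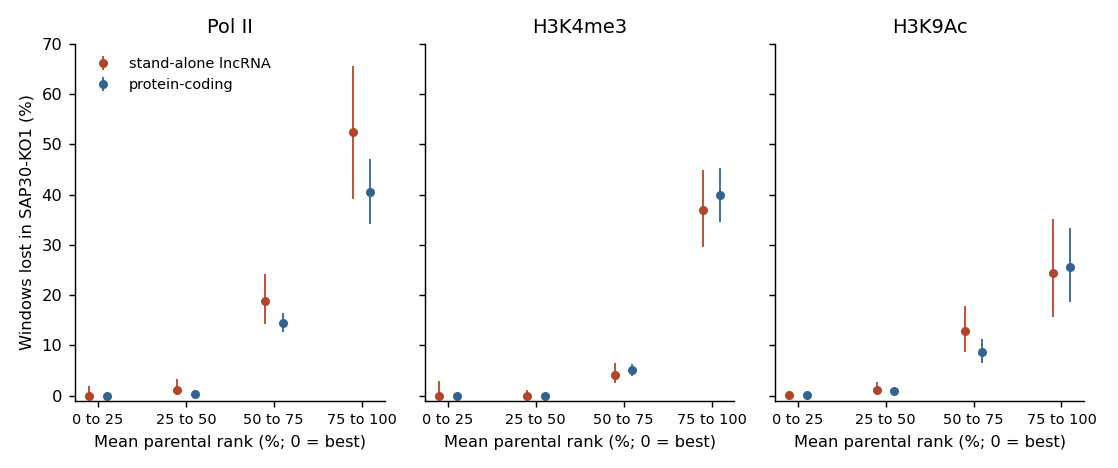
Percent of windows with a peak in both parental libraries that had none in either SAP30-KO1 library (y axis), by mean parental rank in bins of 25 percentage points (x axis, 0 is best), for Pol II, H3K4me3 and H3K9Ac, stand-alone lncRNA in red and protein-coding in blue, with exact 95% binomial intervals. Losses are near 0 in the 2 better bins and reach 52.5% for lncRNA Pol II in the last, where the intervals of the classes overlap for each mark.

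Losses were less frequent where SAP30 had been called. Pol II was lost at 8.84% of 701 lncRNA windows with SAP30 in both parental libraries and at 11 of 27 (40.7%, exact 95% interval 22.4% to 61.2%) with SAP30 in neither. H3K4me3 was lost at 2.86% of 839 and 31.8% of 129, and H3K9Ac at 1.38% of 943 and 13.3% of 210. Parental rank moved with this. The median parental rank of windows with and without SAP30 was 42.2% and 69.8% for Pol II, 48.9% and 71.7% for H3K4me3 and 23.7% and 58.8% for H3K9Ac, and its part in the difference was not tested. CpG-rich windows made up 25.9% of those that lost Pol II and 61.9% of those with Pol II in all 4 libraries. For H3K4me3 these shares were 32.1% and 57.8%, and for H3K9Ac 16.4% and 41.9%.

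The lost windows with the best parental ranks held both named genes and genes known only by an Ensembl number. For Pol II they were ENSG00000286931 (chr14:24475266-24477266, 39.5% and 41.0%), ENSG00000283897, GPRC5D-AS1, ENSG00000263709 and ELDR, a lncRNA downstream of EGFR (chr7:55322328-55324328, 59.5% and 48.7%). In the knockout libraries the nearest Pol II summit was at least 8319 bp from each of these start sites. For H3K4me3 they were LINC02582 (chr18:70991176-70993345, 50.9% and 55.6%), LINC01637, ENSG00000291055 with LINC03067, ENSG00000290600 and LINC02864. For H3K9Ac LINC02897 (chr1:247274719-247276719, 15.9% and 7.29%) stood first, but the knockout libraries held summits 1095 and 1070 bp from its start site, just outside the window. LINC01929, ENSG00000285909, ENSG00000290039 and ENSG00000288985 followed.

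Gained windows were few and low in the lists. Pol II was gained at LINC02952, AQP4-AS1, ENSG00000277159 and the shared window of ENSG00000266599 and ENSG00000263717. LINC02952 (chr11:69258511-69260511, 62.9% and 40.2% in the knockout) had parental summits 1056 and 1071 bp away, just outside its window, and those nearest to AQP4-AS1 were 1447 and 1397 bp away. The best-ranked H3K4me3 gains were ENSG00000249743, ENSG00000286349, ENSG00000253660, LINC02103 and the window of ENSG00000282418 and LINC02765, with ranks between 72.5% and 94.3%. For H3K9Ac they were ENSG00000290410 (chr3:75628150-75630150, 50.6% and 50.4%), ENSG00000229607, ENSG00000284624, ENSG00000254605 and LINC02315, and ENSG00000254605 had parental summits 1075 and 1032 bp away.

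At windows with a peak in all 4 libraries of a mark, the change in rank was tested with limma on normal scores, in which 1 unit is 1 SD of the windows and higher is better. Of 588 lncRNA windows for Pol II, 1 improved and 1 worsened at a Benjamini-Hochberg adjusted p of 0.05 (0.0197% and 0.00984% of all promoter windows), while 65 (11.1%) had an unadjusted p below it, as did 9.39% of all windows. The window of ENSG00000261135 and ENSG00000285853 (chr1:16840140-16842529) went from ranks of 0.15% and 0.209% to 0.0129% and 0.0136%, a difference of 0.76 (SE 0.0975, adjusted p = 0.000148). ENSG00000290039 (chr17:56735667-56737667, same strand inside a coding gene) went from 0.244% and 0.139% to 1.78% and 2.58%, a difference of -1.07 (SE 0.182, adjusted p = 0.0114), and also lost H3K9Ac (36.9% and 51.8% in parental cells). Its call was lost without parental replicate 1 or 2. In simulated Pol II data the share of false calls was above the nominal one, so both Pol II calls are uncertain. To a lesser degree the same held in simulated H3K4me3 and H3K9Ac data, so the calls below are uncertain too.

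Of 922 lncRNA windows for H3K4me3, 2 improved and 3 worsened (0.128% and 0.215% of all windows), and 128 (13.9%) had an unadjusted p below 0.05, as did 9.43% of all windows. On log2 scores the balance was another, with 2 improved and 26 worsened (33 and 176 of all windows). ENSG00000288892 (chr5:140419490-140421490) went from 95.1% and 86.2% to 63.5% and 62.2% (1.51, SE 0.181, adjusted p = 0.00206), and ENSG00000283913 (chr10:81663654-81665654) from 53.2% and 56.4% to 41.8% and 40.7%. The shared window of ENSG00000226172 and ENSG00000239216 (chr1:119543015-119545028) went from 57.5% and 60.6% to 91.1% and 88.6% (-1.07, SE 0.152, adjusted p = 0.0077), and ENSG00000255326 and ENSG00000291063 also worsened (-0.71 and -0.65). Without parental replicate 1 none of these 5 was called, and without parental replicate 2 ENSG00000288892 alone was.

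Of 1129 lncRNA windows for H3K9Ac, 1 improved and 1 worsened (0.0162% and 0.00808% of all windows), and 95 (8.41%) had an unadjusted p below 0.05, as did 8.41% of all windows. On log2 scores 0 improved and 1 worsened. A window of MIR100HG (chr11:122050146-122052146), the host of miR-100, went from 30.2% and 34.9% to 10.8% and 10.4%, a difference of 1.37 (SE 0.244, adjusted p = 0.0438). ENSG00000289938 (chr7:142510078-142512154) went from 18.6% and 21.3% to 69.3% and 63.3%, a difference of -1.53 (SE 0.262, adjusted p = 0.0414). Neither call held without parental replicate 1 or 2, and with windows of 500 bp at each side the MIR100HG window was no longer tested and the difference of ENSG00000289938 was -0.58. No named snoRNA host, nuclear or imprinted lncRNA passed the test.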

How the data were processed

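Libraries from ChIP-seq of the MDA-MB-231 line were grouped by antibody and by parental or knockout line, as the labels give them. The authors deposited, for each of 18 libraries, a list of peak summits that are 1 bp wide and carry the −log10 of a q-value as score. The submitters' processing notes name the build hg19 and the tools FastQC 0.11.2, Bowtie2 2.3.3.1, Picard and MACS2 2.1.0, without their order or options. Peaks were called per library, and the control of each list and the sequencing depth are not given in the sources used here. The labels state 10 min of formaldehyde and the study's methods a longer fixation. The other 12 samples of the series, input and total histone H3, were not analysed here.

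Start sites were those of basic transcripts in GENCODE 44 lifted to GRCh37, on the autosomes and X. A window was 1000 bp at each side of a start site, and windows of 1 class were merged. lncRNA windows near a coding start site that touched another class were left out of the 40656 promoter windows in all. They were kept among the 4826 windows given as a class of their own. The score served only to rank summits within a list. Shares have exact Clopper-Pearson 95% intervals. Differences between classes were tested by sign flips over groups and counts between lines by permutation, both exact and two-sided. Rank changes were tested with limma 3.58.1 (R 4.3.3) over all promoter windows with a peak in all 4 libraries of a mark. A mean-variance trend and Benjamini-Hochberg adjustment at 0.05 were used. The script was first tested on simulated data with 100 changed windows per mark. At a shift of 2 normal scores, 74 were recovered in Pol II, 67 in H3K4me3 and 86 in H3K9Ac, all with the right sign. False calls were 38, 8 and 7. They exceeded their nominal share for each mark, most in Pol II. Promoter sequence was read from GRCh37, and windows of CYTOR and MIR4435-2HG were aligned with Biopython 1.88. Tables were made with Python 3.11.15, pandas 2.3.3, NumPy 2.4.6 and SciPy 1.17.1.

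The genes named were 6 lists of lncRNAs (nuclear, microRNA hosts, snoRNA hosts, cancer-associated, imprinted, tissue-restricted), the 10 windows with the best mean SAP30 rank, the best-ranked windows with SAP30 without SIN3, at most 5 lost and 5 gained windows per mark by mean rank, and all windows past the limma threshold. The windows and lists were chosen with earlier results of these data known. Listed symbols without a match in the annotation, such as CCAT1 and LINC00473, were not analysed here, nor was the marker PECAM1. The 6 promoters printed were chosen after their values were seen, and the promoter sequences of some other genes are not reported here. Alternatives were windows of 500 and 3000 bp, a distance of 10000 bp, annotation levels, a peak in either library, the better-ranked 50% of summits, lists of equal length, a stricter CpG definition, log2 scores, omission of the long arm of chromosome 11, the replicate number as a block and each library left out.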

Additional observations from a re-analysis of the deposited data

How the results depend on the processing

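The lower share of stand-alone lncRNA than of coding windows kept its direction and p in all 8 alternatives, with differences of -37.95 to -37.81 points when 1 replicate was left out. The ratio of windows in SAP30-KO1 to parental cells stayed below 1 in all 24 alternatives, and with 1 library left out it was 0.795 to 0.897 in Pol II, 0.882 to 0.905 in H3K4me3 and 0.935 to 0.987 in H3K9Ac. Shares moved with what counts as a peak. With a peak in either library they were 9.03% for SAP30, 2.07% for SIN3A, 5.68% for SIN3B, 6.30% and 5.48% for Pol II in parental cells and SAP30-KO1, 7.60% and 6.75% for H3K4me3 and 10.6% and 10.1% for H3K9Ac. With windows of 500 bp at each side they were 5.97% for SAP30, 0.933% for SIN3A, 4.29% and 3.58% for Pol II, 5.73% and 5.05% for H3K4me3 and 6.21% and 6.16% for H3K9Ac. With 1 replicate left out they were 7.90% to 8.38% for SAP30, 1.49% to 1.64% for SIN3A, 4.21% to 4.98% for SIN3B, 5.40% to 5.84% and 4.47% to 5.04% for Pol II, 7.12% to 7.30% and 6.41% to 6.47% for H3K4me3 and 9.24% to 9.76% and 8.92% to 9.33% for H3K9Ac. Under the stricter CpG definition (GC at least 55%, ratio at least 0.75) SAP30 was present at 50.1% of CpG-rich and 5.57% of other windows, and with 1 replicate left out at 41.4% to 42.6% and 4.98% to 5.39%. Limited to the better-ranked 50% of the lists, losses fell to 1 in Pol II, 0 in H3K4me3 and 4 in H3K9Ac, and gains to 0 for each. With lists of equal length H3K4me3 losses were 50 and Pol II gains 7. Pol II gains were 11 with windows of 500 bp, and H3K9Ac gains 44 with windows of 3000 bp. With 1 library left out, losses were 101 to 164 in Pol II, 94 to 131 in H3K4me3 and 95 to 147 in H3K9Ac, and gains 15 to 47, 14 to 19 and 64 to 91, since fewer lists must then agree. In limma the H3K4me3 calls were 28 on log2 scores (2 improved, 26 worsened) and 2 among better-ranked windows, the H3K9Ac calls 1 on log2 scores and 0 with windows of 500 bp, and with 1 library left out calls were 1 to 33 in Pol II, 0 to 26 in H3K4me3 and 0 to 5 in H3K9Ac. A lone library of a line is then assumed to vary as the others do. The cause of these changes was not tested beyond what the fewer lists, bases or windows give by construction.

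The replicate numbers in the labels did not pair the libraries. Same-numbered libraries of the lines had correlations of their deviations of 0.017 in Pol II, -0.021 in H3K4me3 and -0.0093 in H3K9Ac. With the replicate number as a block limma called 4 lncRNA windows in Pol II, 23 in H3K4me3 and 5 in H3K9Ac, and the ratios were 0.845, 0.893 and 0.960. Each replicate number occurs once in each line, so the block leaves the difference of every window unchanged by construction. It is therefore no check of the direction of the windows named above.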

Other observations

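LINC02582 and LINC02864, which lost H3K4me3, lie in a gene-poor stretch of chromosome 18 (chr18:68132234-71814884, 3.68 Mb) chosen after their values were seen. It holds 18 stand-alone lncRNA windows, 4 of them with a summit in any library. Its ends are the SAP30-KO1 H3K4me3 summits nearest to LINC02582 on each side, so the SAP30-KO1 H3K4me3 libraries had 0 and 0 summits by construction. Over the whole stretch the parental H3K4me3 libraries had 6 and 8 summits. H3K9Ac had 3 and 2 summits in parental cells and 1 and 0 in SAP30-KO1, Pol II 0 and 2 and then 1 and 2, and SAP30 6 and 3 in parental cells. SIN3A and SIN3B had none. No test was made on this stretch.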
